A study of Danio rerio with 4 samples.

Results

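A set of 110 zebrafish ovary genes stood at least 2-fold below the control in the library exposed to dibutyl phthalate (DBP) and in the library exposed to diisobutyl phthalate (DiBP), and within 2-fold of the control in the library exposed to both compounds. The members were chosen by these values: rows with an Ensembl gene identifier, with identical rows collapsed and at least 1 FPKM on average across the libraries, a difference from control of at most -1 on the log2(FPKM + 1) scale in DBP and in DiBP, and a difference between -1 and 1 in the combined library. FPKM values adjust fragment numbers for gene length and for the depth of a library. Of 11774 loci with the required mean, out of 35066 Ensembl rows, 110 met the rule, or 0.934%. A difference of 1 on this scale is called 2-fold here. The differences that chose the members are given as a description and support nothing.

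Each of the 4 groups was 1 ovary library from wild-type adult females of the AB strain aged 5 months. The exposed fish received DBP alone, its branched isomer DiBP alone, or both compounds for 30 days; the control fish received neither. The sources used here give neither the doses nor the number of fish behind a library. With 1 library a group, no difference has a replicate check, no test was run, and each value compares libraries, not conditions.

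Most RNA of a fish ovary comes from oocytes, which store messages for the early embryo, with follicle cells, stroma, vessels and blood around them. That stored RNA includes messages for regulators that any cell uses, such as chromatin remodellers, splicing factors, coat proteins of secretory vesicles, kinases and enzymes of ubiquitin transfer. Which cells the RNA of the members came from was not measured. Phthalate diesters such as DBP and DiBP are plasticisers whose effects on steroid hormones and lipid metabolism are widely studied. In ovary tissue taken whole, fewer cells of a type and less RNA per cell cannot be told apart.

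The description of the set as lower only after single exposure holds at the 2-fold limit on the log2(FPKM + 1) scale but not below it. In the combined library 101 of the 110 genes were also below the control, 41 of them by at least 1.5-fold, and 9 were above it. Over all 11774 loci tested, 61.8% were below the control in the combined library and 8.93% by at least 1.5-fold. The count below the control was 99 with the libraries scaled to equal totals and 94 with the median of ratios, beside 55.2% and 50.4% of all loci. The combined value was higher than both single-exposure values at all 110 members, as the limits force. It came within 1.25-fold of the control at 35 of them, or 31.8%, beside 64.4% of all loci. All these shares use the control library that also chose the members. They are therefore shaped in part by the rule, and describe the set without supporting anything. Relative to the control, the members stood between 4.44% and 49.5% in DBP, between 0% and 46.8% in DiBP and between 33.1% and 142% in the combined library. In FPKM itself, some members were thus more than 2-fold below the control in the combined library too, such as pard3bb (33.1%) and foxl2l (37.0%).

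**Figure D1:**
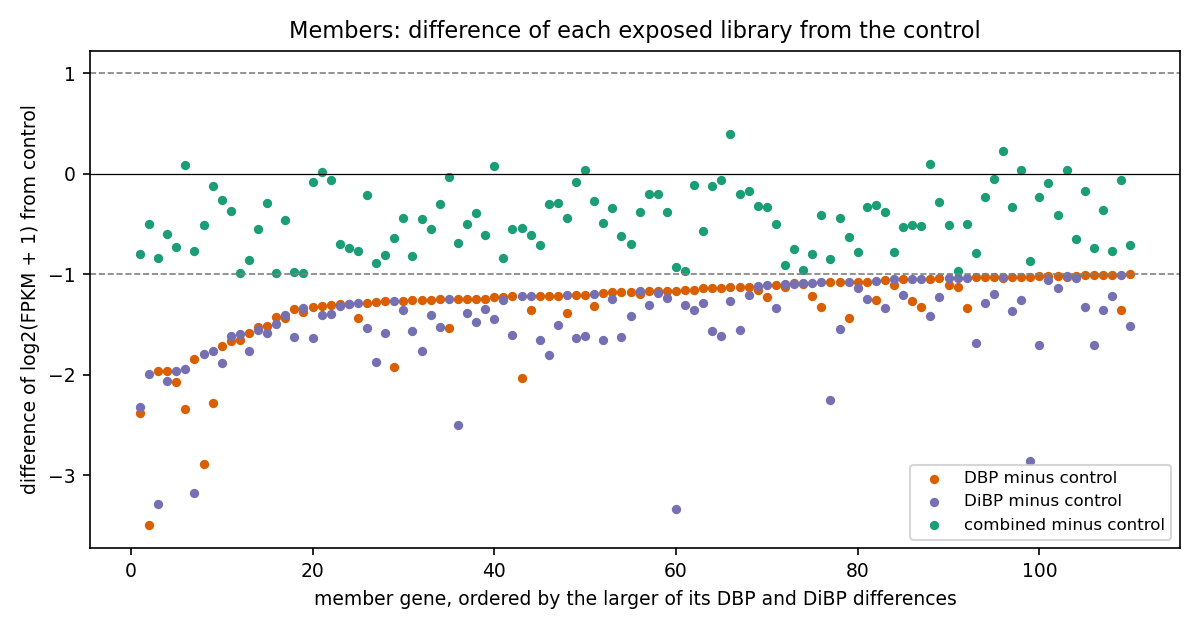
Each of the 110 members is 1 position on the x axis, ordered by the larger of its DBP and DiBP differences, and the y axis gives the difference of log2(FPKM + 1) of each exposed library from the control (1 point per library, no replicates; dashed lines mark -1 and 1). All DBP and DiBP points lie at or below -1, as the rule demands, and 101 of the 110 combined points lie between the control and the lower dashed line.

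On the log2 scale the members' median difference from control was -1.22 in DBP, -1.36 in DiBP and -0.49 in the combined library, beside medians of 0.00, -0.08 and -0.09 over all loci tested. At least 2-fold lower values were found at 2.46% of loci in DBP, 6.23% in DiBP and 2.62% in the combined library, and at least 2-fold higher ones at 3.61%, 5.33% and 2.48%. Both single-exposure libraries were at least 2-fold lower together at 177 loci, or 1.5%. Of those, 110 are the members, 60 (0.51% of all loci) were at least 2-fold lower in the combined library too, and 7 were at least 2-fold higher there. The 3 comparisons share 1 control library, so a high or low control value enters all of them. Other patterns held 19 loci or 0.161% (DBP and combined lower, DiBP within 2-fold), 92 loci or 0.781% (DiBP and combined lower, DBP within 2-fold), 85 loci or 0.722% (DBP alone) and 453 loci or 3.85% (DiBP alone). The mirror pattern, at least 2-fold higher in DBP and in DiBP and within 2-fold in the combined library, held 128 loci, or 1.09%.

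**Figure D2:**
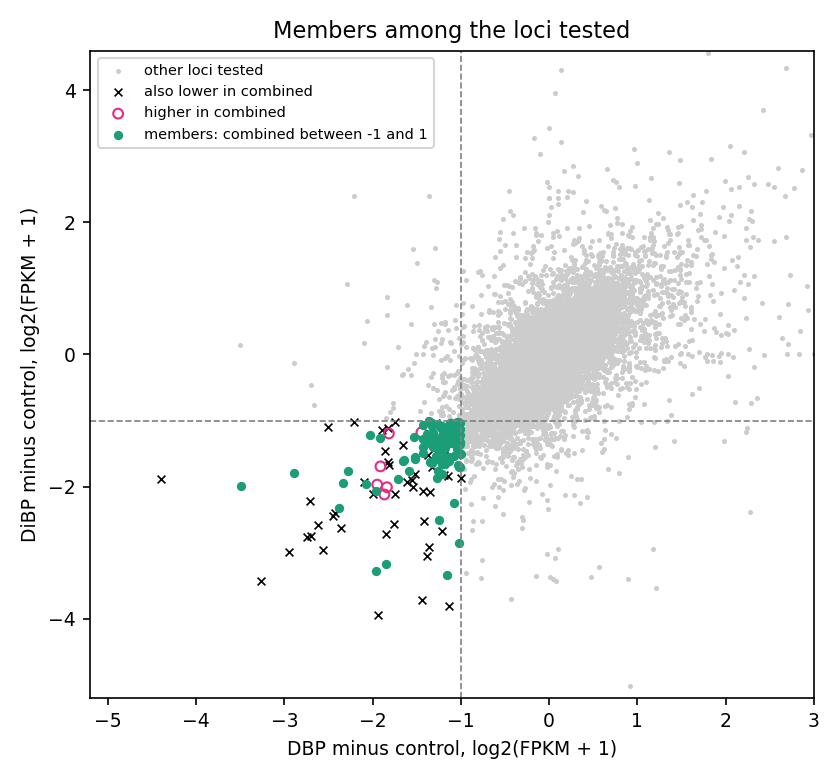
Every tested locus is drawn by its DBP minus control difference (x axis) and its DiBP minus control difference (y axis), both of log2(FPKM + 1); 24 loci lie outside the axes. The 110 members (green) fill the lower left quadrant beside 60 loci that were also lower in the combined library (crosses) and 7 that were higher there (open circles), and most members lie close to the limits.

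Most members sat near the limits that define them. Only 15 were at or below -1.5 in both single-exposure libraries and 1, an unnamed locus, at or below -2 in both. Just inside the single-exposure limit were CLCN4 (larger difference -1.0007) and dnase1l1 (-1.01). Just outside were ZBTB22 and KDELR3 (both -0.99) and FAR1 (-0.98). At the combined limit, pard3bb and foxl2l (both -0.99) were inside, whereas pimr68 (-1.02) and CNTN5 (-1.07) were outside.

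DBP and DiBP were compared within the set, a difference that the rule does not bound directly although it uses the same libraries. DiBP was below DBP at 74 of 110 members, or 67.3%, beside 60.8% of all loci tested (84 members with equal totals and 64 with the median of ratios, beside 66.6% and 49.6% of loci). The members' median DiBP minus DBP difference was -0.13, beside -0.10 over all loci. The values of the isomers lay within 0.5 log2 units of each other at 92 members (83.6%, beside 77.6% of all loci). DiBP was at least 2-fold below DBP at 6 members and at least 2-fold above it at 2, beside 3.51% and 2.55% of all loci. The widest gap was at an unnamed locus, ENSDARG00000102907, with 8.94 FPKM in DBP, 1.205 in DiBP, 10.7 in the combined library and 21.2 in the control. At the other end, the clone-named gene si:dkey-81e3.2 was 1.502 log2 units higher in DiBP than in DBP. With 1 library each and unknown doses, the isomers' difference has neither a test nor an interval.

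The combined library was at least 2-fold above DBP at 32 members and at least 2-fold above DiBP at 50, beside 1.86% and 3.52% of all loci. These counts follow in large part from the limits of the rule. The members' median combined minus DBP difference was 0.81 and their median combined minus DiBP difference 0.96.

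Members were measured over a wide range of levels. In the control their median was 13.6 FPKM (2.28 to 857), close to the 10.1 FPKM of all loci tested. It was 4.94 FPKM in DBP, 4.49 in DiBP and 8.80 in the combined library. Summed, they made up 0.270% of all FPKM in the DBP library, 0.220% in DiBP, 0.558% in the combined library and 0.726% in the control. In the control 67 members were at 10 FPKM or more (60.9%, beside 50.2% of all loci). In a single-exposure library 23 were under 1 FPKM (20.9%, beside 7.45%), where log2(FPKM + 1) understates the difference. Both shares follow in part from the rule, which uses these same values. One locus, ENSDARG00000108213, was listed at 0 in DiBP, with 1.39 FPKM in DBP, 2.53 in the combined library and 4.67 in the control.

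A symbol was found for 91 members, 7 of which are clone names or the name of a ribosomal RNA, leaving 84 with a gene name. By what these genes are known to do, a grouping made after their values were seen, 75 members fall into 7 groups. Group medians, which the rule bounds in the single exposures, ran from -1.35 to -1.11 in DBP and from -1.53 to -1.25 in DiBP. In the combined library they ran from -0.605 for signalling genes to -0.20 for chromatin and transcription genes.

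Regulators of chromatin and transcription formed the largest group, with 17 members. Their median combined difference was -0.20, the closest to control of the 7 groups. Above the control there were 3 of them, beside 9 of all 110 members. SMARCC1, a core subunit of the BAF chromatin remodelling complex, was at 14.9 FPKM in DBP, 13.9 in DiBP, 36.7 in the combined library and 38.3 in the control. ARID1A, the DNA-binding subunit of the same complex, was at 3.86, 3.15 and 9.14 FPKM in DBP, DiBP and combined, against 8.88 in the control. Both loci were near the control in the combined library and below it in the single-exposure libraries, where the rule demands it. The related gene smarcc1b, which is no member, was at 15.2, 12.6 and 16.9 FPKM in DBP, DiBP and combined, against 11.9 in the control. RCOR3, a corepressor of the CoREST complex, was at 2.43, 1.89 and 6.24 FPKM in DBP, DiBP and combined, against 7.36 in the control. PHF21A, the CoREST subunit that reads unmethylated histone H3, was at 2.37, 1.90 and 7.31 FPKM, against 6.89. The demethylase gene kdm6al, a relative of UTX, was at 17.1 and 12.5 FPKM in DBP and DiBP, 33.5 in combined and 38.6 in the control.

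Sequence-specific factors and general cofactors were also members, and so lowest in the single exposures, as the rule demands of every member. SP1, which binds GC boxes of many promoters, was at 37.6 FPKM in DBP, 28.9 in DiBP, 84.2 in combined and 78.6 in the control. SMAD4, the shared partner of the SMADs that carry TGF-beta and BMP signals, was at 10.8, 9.47 and 22.1 FPKM in the exposed libraries, against 23.0 in the control. MED25, a Mediator subunit, was at 8.22, 5.12 and 16.4 FPKM, against 20.4, and TAF6L, a subunit of histone acetyltransferase complexes, at 6.35, 4.92 and 12.1, against 13.8. The transcription kinase cdk13 was at 21.5 FPKM in DBP, 18.2 in DiBP, 39.8 in combined and 52.3 in the control.

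Among the members of the group further below the control in the combined library were hsf1, camta2 and foxl2l. The heat-shock regulator hsf1 was at 2.17 FPKM in DBP, 2.51 in DiBP, 4.04 in combined and 7.57 in the control. It was the 1 member among the 32 measured loci of a list of heat-shock and immediate-early genes, beside 0.934% of all loci, and nothing is read from that count. Of the heat-shock genes that hsf1 is known to drive, hsp70l was at 0.295 FPKM in DBP, 30.6 in DiBP and 41.4 in combined, against 4.997 in the control. In the same list, hsp70.1 and hsp70.3 were likewise below the control in DBP and above it in DiBP and combined. HSPA8, HSP90AB1 and dnajb1a were below it in every exposed library. Of the 32 loci of the list, 25 were below the control in DBP and 15 in DiBP, beside 5845 and 6664 of the 11774 loci tested. A link of these values to hsf1 was not tested. The forkhead gene foxl2l, which acts in young female germ cells in zebrafish, was at 0.485, 0.542 and 1.35 FPKM in DBP, DiBP and combined, against 3.66 in the control. Its relative FOXL2, of the granulosa cells, was at 1.43, 1.19 and 1.24 FPKM, against 1.16, at its higher locus. MBD5, SBNO1, ZBTB7B, camta2 and MLLT1 complete the group, with control levels between 2.28 and 30.7 FPKM.

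**Figure D3:**
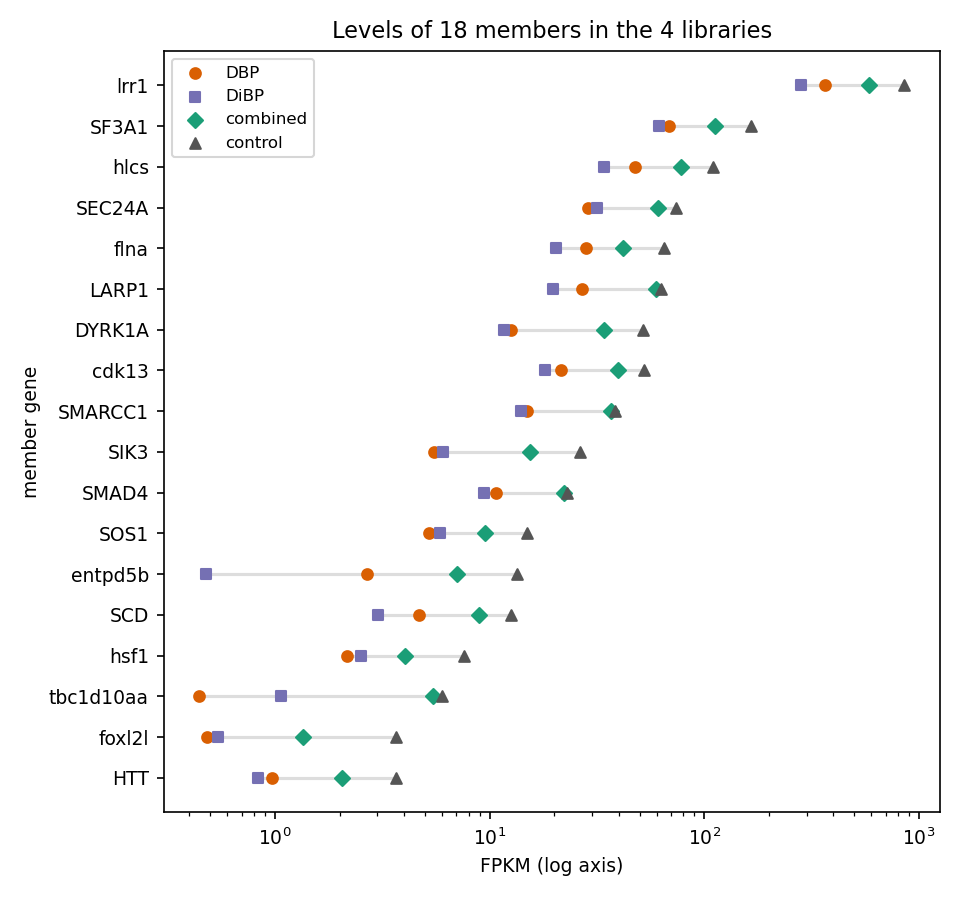
FPKM on a log axis of 18 members of different roles (1 symbol per library, no replicates; grey lines join the lowest and highest library). The DBP and DiBP symbols lie to the left in every row, and the combined symbol lies close to the control for SMARCC1, SMAD4, LARP1 and tbc1d10aa and further below it for SIK3, foxl2l and HTT.

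Of 10 members that serve RNA processing or translation, several were abundant. SF3A1, a U2 snRNP protein that helps to define the branch point in splicing, was at 68.8 FPKM in DBP, 61.7 in DiBP, 113 in combined and 165 in the control. CHERP, a protein tied to the same splicing machinery, was at 36.9, 41.9 and 72.0 FPKM, against 97.9. LARP1, which binds messages of ribosomal proteins, was at 26.8 and 19.7 FPKM in DBP and DiBP, 59.7 in combined and 63.1 in the control. These genes are separated by their combined values: LARP1 was near the control, SF3A1 and CHERP about midway.

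In the same group, LARS2, which charges leucine tRNA in mitochondria, was at 6.79 FPKM in DBP, 3.96 in DiBP, 8.22 in combined and 14.9 in the control, and fastk, of a family that handles mitochondrial RNA, at 4.69, 2.76 and 6.45, against 12.8. RPP14, a protein of RNase P, was at 5.92 and 6.07 FPKM in DBP and DiBP, 12.6 in combined and 17.7 in the control. HELZ, an RNA helicase, was at 2.32, 2.35 and 7.01 FPKM, against 5.83, so that its combined value was above the control. A row of a small ribosomal RNA, 5_8S_rRNA, was at 16.9 FPKM in DBP, 37.3 in DiBP, 91.9 in combined and 131 in the control; such genes have many copies, so the row cannot be credited to 1 gene.

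Secretion, glycosylation and membrane traffic accounted for 10 members. SEC24A, which picks cargo for the COPII vesicles that leave the endoplasmic reticulum, was at 28.9 FPKM in DBP, 31.6 in DiBP, 60.6 in combined and 73.5 in the control. SEC23B, the coat protein that pairs with it, was at 14.9, 17.9 and 29.1 FPKM, against 39.0. STT3B, a catalytic subunit of the oligosaccharyltransferase that attaches N-glycans, was at 22.9, 20.7 and 39.1 FPKM, against 55.6. In each of these, the combined library stood between the single exposures and the control, as it did at 101 of all 110 members. Over all loci tested the share was 16.3%. The rule puts the combined value of every member above its single exposures, so only its place below the control was open. The endocytic adaptor dab2, among the most abundant members, was at 106 FPKM in DBP, 83.7 in DiBP, 173 in combined and 217 in the control. The Rab regulator tbc1d10aa, in contrast, was near the floor in DBP, at 0.442 FPKM, with 1.06 in DiBP, 5.43 in combined and 6.01 in the control. WDR7, a partner of the vacuolar proton pump, was at 14.2 and 10.4 FPKM in DBP and DiBP, 34.8 in combined and 33.9 in the control.

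Cytoskeletal genes numbered 9, all below the control in the combined library, as were 101 of all 110 members. The actin crosslinker flna was at 28.0 FPKM in DBP, 20.3 in DiBP, 41.7 in combined and 64.8 in the control, and actn4, an alpha-actinin, at 10.2, 8.24 and 20.7, against 25.6. The Arp2/3 subunit actr3, which seeds actin branches, was at 95.2, 74.3 and 149.6 FPKM in the exposed libraries, against 192 in the control. NCKIPSD, an adaptor of actin regulators, was at 25.1 and 18.4 FPKM in DBP and DiBP, 51.8 in combined and 56.3 in the control. Tubulin-modifying enzymes were also present: TTLL1, which adds glutamate chains, at 7.41, 5.76 and 10.6 FPKM, against 19.3, and MATCAP1, known in human cells to remove the last tyrosine of alpha-tubulin, at 0.945, 0.852 and 3.55, against 4.56. The polarity gene pard3bb was low throughout, at 0.444, 0.373 and 0.951 FPKM, against 2.88.

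Signalling genes numbered 9, all below the control in the combined library, beside 101 of all 110 members. DYRK1A, a dual-specificity kinase, was at 12.6 FPKM in DBP, 11.6 in DiBP, 34.0 in combined and 51.9 in the control, a log2 difference from control of -1.96, -2.06 and -0.60. SIK3, a salt-inducible kinase, was at 5.50, 6.05 and 15.5 FPKM, against 26.4, with differences of -2.07, -1.96 and -0.73. In both kinases DBP and DiBP were nearly level, between 20.8% and 24.3% of the control. SOS1, the exchange factor that loads RAS with GTP, was at 5.22, 5.86 and 9.50 FPKM in DBP, DiBP and combined, against 15.0 in the control. SAMTOR, known in human cells as the S-adenosylmethionine sensor of the mTORC1 pathway, was at 3.43, 2.66 and 4.72 FPKM, against 10.3. The sheddase gene adam10b was at 2.20 FPKM in DBP, 4.03 in DiBP, 6.76 in combined and 11.1 in the control, lower in DBP than in DiBP. TNFRSF19, a receptor of the TNF family, was at 0.872 and 0.512 FPKM in DBP and DiBP, 3.45 in combined and 3.71 in the control.

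Ubiquitin, proteasome and autophagy genes made up 10 members. The most abundant of all members was lrr1, a substrate receptor of a cullin ubiquitin ligase, at 367 FPKM in DBP, 281 in DiBP, 587 in combined and 857 in the control. The ubiquitin-activating enzyme uba1, which starts the cascade, was at 25.5, 21.5 and 39.1 FPKM, against 55.9. ITCH, a HECT ligase, was at 3.20, 2.05 and 5.52 FPKM, against 7.86. These genes act at different steps of ubiquitin transfer. In each, the combined value lay between the single exposures and the control, as at 101 of all 110 members and 16.3% of all loci. The rule sets its place above the single exposures. FBXO33 and fbxl17, F-box proteins that choose ligase substrates, were at 6.70 and 6.38 FPKM in DBP, 6.24 and 3.57 in DiBP, 12.6 and 7.88 in combined, and 17.5 and 13.8 in the control. ATG101, of the complex that starts autophagy, was at 21.5, 20.9 and 41.8 FPKM, against 44.7. SPATA18, known for mitochondrial quality control in mammals, was at 4.58 FPKM in DBP, 0.567 in DiBP, 5.23 in combined and 10.3 in the control. The ligase gene SH3RF3 had the combined value furthest above the control of any member, at 4.42 FPKM against 3.11, with 0.879 in DBP and 0.710 in DiBP.

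Metabolic enzymes and transporters, 10 members, were all below the control in the combined library, beside 101 of all 110 members. The biotin ligase hlcs, which activates carboxylases, was at 47.7 FPKM in DBP, 34.1 in DiBP, 77.9 in combined and 109.6 in the control. SCD, the desaturase that makes monounsaturated fatty acids, was at 4.70 and 3.01 FPKM in DBP and DiBP, 8.96 in combined and 12.6 in the control. Its known regulators SREBF1 and srebf2 missed the limit in DBP: SREBF1 was at 1.97, 1.27 and 3.80 FPKM in DBP, DiBP and combined, against 4.42, and srebf2 at 14.1, 11.6 and 23.3, against 26.1. None of the 20 measured genes of cholesterol synthesis and its regulation met the rule, beside 0.934% of all loci.

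Phospholipid enzymes were represented by 3 members. TAMM41, which makes CDP-diacylglycerol for cardiolipin in mitochondria, was at 18.7 FPKM in DBP, 20.3 in DiBP, 35.6 in combined and 45.0 in the control. GNPAT, the first enzyme of ether lipid synthesis, was at 3.46, 3.25 and 6.69 FPKM, against 8.99. CEPT1, which finishes phosphatidylcholine and phosphatidylethanolamine, was at 2.21, 1.97 and 3.89 FPKM, against 5.50. FAR1, which supplies alcohols for ether lipids, missed the DiBP limit, at 1.59, 2.44 and 4.30 FPKM, against 5.77. The purine and pyrimidine enzymes AMPD1 and DPYD, the folate carrier SLC46A1 and the esterase ces2b had control levels between 3.00 and 24.9 FPKM. The nucleotidase gene entpd5b was lower in DiBP than in DBP, at 2.69 FPKM in DBP, 0.478 in DiBP, 7.04 in combined and 13.4 in the control. A clone-named gene, si:ch73-335m24.8, followed it closely, at 2.40, 0.353 and 6.16 FPKM, against 11.2.

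Outside these groups were 35 members, among them 19 loci with no symbol and 6 of the clone-named genes. HTT, the gene of the very large scaffold protein huntingtin, was at 0.974 FPKM in DBP, 0.835 in DiBP, 2.06 in combined and 3.67 in the control. The tricellular junction gene ildr1a was at 31.1, 28.0 and 46.7 FPKM, against 69.7. The unnamed locus ENSDARG00000104615 held the 1 pair of differences at or below -2, with 11.9 FPKM in DBP, 12.4 in DiBP, 37.5 in combined and 66.0 in the control. The clone-named gene si:dkey-81e3.2 had the lowest DBP difference, -3.50, at 0.917 FPKM in DBP, 4.43 in DiBP, 14.4 in combined and 20.7 in the control.

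Related genes and second loci were set beside the members. There were 9 symbols carried by a member and by 1 other measured locus each, and 0 of those 9 loci met the rule, which 0.934% of all loci do. Their median differences were -0.23 in DBP, -0.07 in DiBP and 0.08 in the combined library. The other DYRK1A locus was at 6.90, 6.41 and 6.75 FPKM in DBP, DiBP and combined, against 6.77 in the control, level in all libraries. The other ARID1A locus was at 8.60, 8.27 and 9.25 FPKM, against 7.76. Of the 9, the other locus of wbp11, a splicing factor gene, was the one at least 2-fold below the control, in DiBP. The member was at 19.7 FPKM in DBP, 13.8 in DiBP, 42.5 in combined and 44.4 in the control, and its other locus at 21.6, 12.9 and 35.6, against 40.5. UBLCP1, a phosphatase of the proteasome, ran the opposite way at its 2 loci. The member was at 3.55, 4.54 and 11.9 FPKM in DBP, DiBP and combined, against 12.2, while the other locus was at 9.39, 10.5 and 5.203, against 4.87; summed, they gave 12.9, 15.0 and 17.1 FPKM, against 17.0. Where 2 loci are near-identical copies, reads may be split between them, so such values are uncertain.

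**Figure D4:**
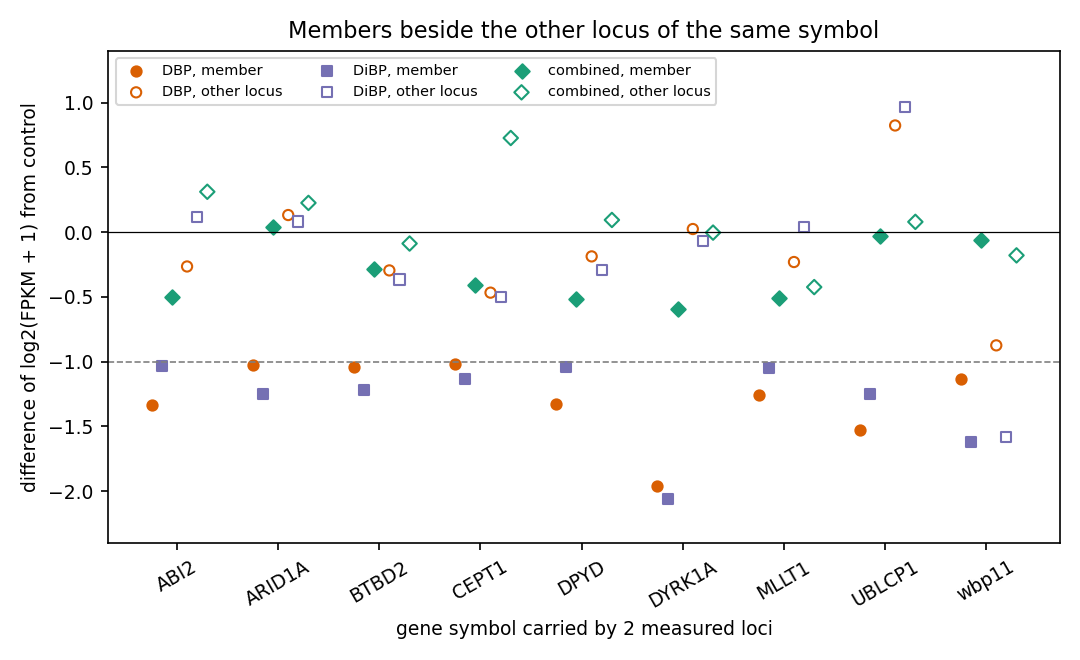
For the 9 symbols carried by a member and by another measured locus, the difference of log2(FPKM + 1) from control is drawn for the member (filled) and the other locus (open) in the DBP, DiBP and combined libraries (no replicates; the dashed line marks -1). The other loci of DYRK1A and ARID1A lie near 0 in all 3 libraries, that of wbp11 lies low in DiBP, and that of UBLCP1 lies above 0 in DBP and DiBP.

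The partners of members in complexes and pathways, listed after the members were known, mostly did not meet the rule. Of 10 measured COPII loci 2 are members, with list medians of -0.45 in DBP, -0.35 in DiBP and -0.26 in combined. The member SEC24A sits beside SEC24B at 14.1, 13.996 and 20.0 FPKM in DBP, DiBP and combined, against 20.1 in the control, and SEC23B beside sec23a at 9.41, 15.1 and 11.3, against 11.6. Of 21 BAF loci 2 are members (medians -0.03, -0.15 and -0.01), and of 8 CoREST loci 2 (medians -0.27, -0.24 and -0.05). Mediator held 1 member among 29 loci, with medians of 0.19, 0.13 and 0.00, and the SF3 complexes 1 among 12, with medians of 0.29, 0.33 and 0.04. In DBP and DiBP, 9 and 7 COPII, 11 and 12 BAF and 6 and 7 CoREST loci were below the control. For Mediator it was 10 and 13 loci and for SF3 3 and 4, beside 5845 and 6664 of all 11774 loci. Some partners had the members' pattern short of the limits. SMARCA4 differed by -0.81, -0.85 and -0.10 in DBP, DiBP and combined, and SEC31B by -0.78, -0.88 and -0.14.

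The oligosaccharyltransferase list had medians of -0.25 in DBP, -0.39 in DiBP and -0.29 in combined, and 1 member among 12 loci. STT3A, the other catalytic subunit, was at 63.9, 39.5 and 77.3 FPKM in DBP, DiBP and combined, against 99.2, and met the 2-fold limit in DiBP only. Phospholipid synthesis held 3 members among 20 loci (medians -0.09, -0.21 and -0.19), and the Arp2/3 and WAVE complexes 2 among 17 (medians -0.12, -0.13 and -0.10). Since the lists were drawn up around members, their member counts say nothing about enrichment.

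Lists chosen for the ovary and for phthalate exposure were also searched for members. Of 198 measured loci in lists of cholesterol and steroid synthesis, hormone receptors, fatty acid oxidation, xenobiotic and antioxidant enzymes, stress, apoptosis, meiosis, the piRNA pathway and mitochondrially encoded genes, 1 is a member (hsf1), beside 0.934% of all loci, and nothing is read from that count. By shared symbol, 2 of 53 F-box loci, 1 of 74 RAB symbols (RABGGTA), 1 of 178 solute carriers (SLC46A1) and 1 of 123 zinc finger symbols (ZBTB7B) are members. None of the 75 cytosolic ribosomal protein loci, 72 mitochondrial ribosomal protein loci, 46 nuclear complex I loci or 42 proteasome loci is one. With 0.934% of all loci meeting the rule, lists of these sizes would hold few members or none, and nothing is read from these counts either. The gene order of the zebrafish RefSeq assembly GRCz12tu placed 69 members whose symbol is carried by 1 row, and 2 pairs had at most 4 protein-coding genes between them: dnase1l1 and flna, with 1, and si:dkey-81e3.2 and SAMTOR, with 3. No placed members were direct neighbours. No count over other loci stands beside these pairs, so nothing is read from them.

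Other features of the libraries differed between the groups, and their part in the members' values was not tested. Of 9 mitochondrially encoded transcripts, 6 were at least 2-fold higher in DBP, 3 in DiBP and 2 in combined, with medians of 1.54, 0.54 and -0.13. The cytosolic ribosomal proteins, which are short, had medians of 0.29 in DBP, 0.43 in DiBP and -0.26 in the combined library. A list of genes of very large proteins, drawn up after the values were seen, held 70 loci. The members HTT, flna and HELZ are among them, beside 0.934% of all loci that are members. The list was written with these members known, so nothing is read from their number. The medians of this list were -0.08, -0.11 and 0.26, beside 0.00, -0.08 and -0.09 over all loci. Markers of granulosa, surface epithelium, vessel and white blood cells summed higher in every exposed library, but single rows went the other way. In combined, 4 of 17 granulosa, 3 of 8 surface epithelium, 6 of 15 vessel and 5 of 21 leukocyte rows were below the control. Fewer rows of each list were below it in DBP and in DiBP. The summed FPKM of 17 granulosa rows was 61.0 in DBP, 47.2 in DiBP and 27.7 in combined, against 19.3 in the control. SERPINE2 alone held 26.8, 26.4 and 20.5 of these sums, against 14.7, so they rest largely on 1 gene. For 8 surface epithelium rows it was 495, 1171 and 179, against 100.4, and for 15 smooth muscle and vessel rows 44.1, 18.7 and 11.6, against 10.4. The 21 leukocyte rows summed to 96.5, 60.6 and 38.7 FPKM, against 9.48, and 12 rows of theca and steroid cells to 139.9, 91.5 and 128.4, against 111.0. No gene of these lists is a member, but few of their rows had the mean that the rule requires. Those that did were 4 granulosa, 5 surface epithelium, 4 vessel, 4 leukocyte and 5 theca and steroid cell loci. Since 0.934% of all loci met the rule, so few loci would hardly hold a member, and nothing is read from the absence. Egg-cell transcripts were abundant in every library, as the label of ovary requires, with 22 oocyte rows summing to 10550, 9732 and 7233 FPKM, against 9151. Below the control were 6 of these rows in DBP, 12 in DiBP and 17 in combined. Over the 11774 loci tested it was 5845, 6664 and 7278. Of the granulosa rows, 0 were listed at 0 in DBP, 1 in DiBP, 1 in combined and 4 in the control; amh, a granulosa hormone, was at 0.132, 0.0857 and 0.0644 FPKM, against 0.0652. The commonest ratios between low values, which follow relative depth where whole reads were counted, put DBP, DiBP and combined at 1.05, 0.913 and 1.02 times the depth of the control.

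Scaling moved the edge of the set. With the libraries scaled by the median of ratios, 95 of the 110 members still met the rule. Those that did not include SEC23B, MAN2A2, RABGGTA, ABI2, DPYD, MLLT1, HELZ, ATG101, ECPAS, focad and dnase1l1. With a pseudocount of 0.1, 97 still met it, and foxl2l, pard3bb, SAMTOR, AMPD1 and ces2b did not, since their combined value then lay more than 2-fold below the control. Under that pseudocount, both scalings and limits centred on the median of all loci, 84 members were kept throughout, among them DYRK1A, SIK3, SMARCC1, SF3A1, SEC24A, lrr1 and SMAD4.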

How the data were processed

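Ovaries were snap frozen, RNA was extracted with an RNeasy kit, and NEBNext Ultra libraries gave paired Illumina reads, per the labels' protocols. The authors deposited 1 table of FPKM values per library, with 49610 rows, of which 14544 are merged loci without a gene name. The unit was inferred from the numbers themselves, since no header states it. The build GRCz10 and the tools HISAT2 and HTSeq 0.6.1 are listed per the submitters' processing notes. Settings, annotation and strand use are not stated there, so overlapping genes cannot be told apart. In the tables of DiBP and of both compounds the short column names differ from the sample titles; GEO's assignment of tables to samples was followed.

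Ensembl rows were collapsed where all 4 values were identical (27068 rows above 0, 25259 loci), and differences of log2(FPKM + 1) were taken without further scaling. Symbols came from a table of identifiers and are printed as given there, in which 10950 of 11774 tested loci matched. Absolute depth is unknown, so no counting interval can be given. The code of the rule was checked on simulated data with little noise and planted drops well beyond the limit. That check says nothing about false members in these data. The members, the lists and the role groups were chosen with earlier results of these data known. Genes named by rule are the 24 members lowest in both single exposures, the 10 most abundant, those in a list, and the 5 nearest each limit or highest in the combined library; together 46 members, not all printed. Further members and other loci were named after their values were seen. Promoter and protein sequences were not used here. Some members are not reported here. Alternatives were the pseudocount, the filter, the scaling, the collapsing of rows and the limits. Python 3.11.15, numpy 2.4.6, pandas 2.3.3 and matplotlib 3.10.9 were used.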

Additional observations from a re-analysis of the deposited data

How the results depend on the processing

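No paired analysis was possible because each group has 1 library. The number of members depends on the settings: 187 genes met the rule with a pseudocount of 0.1 (97 of the 110 among them), 467 with 1.5-fold limits (69 shared) and 19 with 3-fold limits (12 shared); for the limits this follows from their construction. Equal totals gave 147 genes, all 110 members among them, and shifted the median difference of all loci in DiBP to -0.22; the median of ratios gave 98 (95 shared), no filter 117, a mean of at least 5 FPKM 74, all rows with merged loci 160 (109 shared), and limits centred on the median of all loci, chosen after seeing the data, 99 (96 shared). Uncollapsed rows gave the same 110. Taken over the genes that met the rule under each pseudocount, filter and scaling tried, the 6 median differences between libraries kept their sign and moved by less than 1.5-fold. Because the genes were chosen anew by the rule each time, most of these signs were forced. These are DBP and DiBP against control, and combined against DBP and against DiBP. The median of DiBP minus DBP, whose sign was not forced, ranged from -0.20 to -0.08. At a mean of at least 5 FPKM, 1 of the 2 close gene pairs was left. Of 756 differences of single named genes, 25 moved by more than 1.5-fold, all with a pseudocount of 0.1. Changes of sign were counted only for differences beyond 2-fold, and the count was 0. That was fixed in advance: a pseudocount cannot turn a sign, and the scaling factors were too small to undo a 2-fold drop. Values under 1 FPKM rest on few reads, and absolute depth is unknown.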
